A study of Mus musculus with 20 samples.

Results

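The genes examined were the 10 members of the Fos, Jun and Egr families on the array: Fos, Fosb, Fosl1 and Fosl2, Jun, Junb and Jund, and Egr1, Egr2 and Egr3. They were taken as the probes, control spots left out, whose RefSeq transcript accession maps to 1 of these symbols. They had 11 probes between them, out of 26582 named probes for 20145 genes. Fosl2 had 2 probes, the Fos probe was printed as 10 replicate spots, and each other gene had 1 probe in 1 spot. All 10 genes passed the filter on dim probes. The probe used for each gene was well above background in 20 of 20 samples for 9 of them, and in 4 of 20 for Egr3. The other Fosl2 probe was well above background in 6 of 20.

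The samples were mouse embryonic fibroblasts of a Balb/c background, grown in serum-containing medium with uridine and collected as they neared confluence. Controls received the ethanol carrier (3 µl/ml) and are labelled 0 h, and the treated cells received 150 µM actinonin for 6, 24, 48 or 72 h. Actinonin is a peptidomimetic inhibitor of metalloproteases and of peptide deformylase, an enzyme that acts on newly made mitochondrial proteins. There were 5 groups of 4 samples. Each sample pooled RNA from 4 plates and was labelled with Cy3 or Cy5, and the pair of samples on an array shared that array. The labels do not give separate carrier controls for each time, so time in culture and time in actinonin cannot be told apart. In such bulk RNA, fewer cells of a type and less RNA per cell cannot be told apart either.

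Fos and Jun proteins are basic leucine zipper factors that pair to form AP-1, the transcription factor that binds TGACTCA and related sites. Egr proteins are zinc finger factors that bind GC-rich sites. In fibroblasts, serum and growth factors switch on Fos, Fosb, Junb and the Egr genes within minutes, without new protein synthesis, through MAP kinases, the serum response factor (SRF) and its ternary complex partners. Fosl1 and Fosl2 are induced later and last longer, and Jund is expressed at a more even level in resting and growing cells.

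Promoter sequences were looked up for all members, since these genes are known for the short control elements near their start sites. The RefSeq promoter windows (GRCm38.p6, 250 bases before to 50 after a start site) held 7 of the 10 members in 11 windows. Shown here are 4 promoters, from 150 bases before the start site up to it, chosen to span a gene that fell early (Fos), a pair of the genes with a large late fall (Jun, Egr2) and a gene that hardly moved (Fosb). Capitals mark the motifs found by letter search on both strands.
Fos, chr12:85473740-85473889, plus strand: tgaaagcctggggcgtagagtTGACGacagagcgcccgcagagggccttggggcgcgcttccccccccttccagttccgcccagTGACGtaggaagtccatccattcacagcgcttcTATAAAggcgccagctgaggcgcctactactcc
Jun, chr4:95052223-95052372, minus strand: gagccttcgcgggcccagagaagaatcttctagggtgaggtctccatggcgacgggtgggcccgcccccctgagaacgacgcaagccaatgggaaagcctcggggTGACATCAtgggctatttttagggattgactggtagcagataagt
Egr2, chr10:67537719-67537868, plus strand: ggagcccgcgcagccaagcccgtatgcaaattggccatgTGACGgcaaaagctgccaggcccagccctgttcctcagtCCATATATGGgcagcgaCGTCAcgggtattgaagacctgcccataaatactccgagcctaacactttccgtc
Fosb, chr7:19310046-19310195, minus strand: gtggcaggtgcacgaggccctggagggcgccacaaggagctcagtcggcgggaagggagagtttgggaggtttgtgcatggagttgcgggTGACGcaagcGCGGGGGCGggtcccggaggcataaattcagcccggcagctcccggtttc
In the Fos promoter the capitals are 2 copies of TGACG, the core of the cyclic AMP response element, and a TATAAA box at -33 to -28 from the start site. In Jun they mark TGACATCA, the variant AP-1 site, at -45 to -38. In Egr2 they mark a CArG box, the SRF binding motif, at -72 to -63, with a TGACG core on either side, 1 of them on the other strand. In Fosb they mark 1 TGACG and 1 EGR site.

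These motifs differed in how common they were over the 32851 promoter windows. TGACG was in 20.8% of windows and TATAAA in 13.6%, so a match to either is common. TGACATCA was in 3.62%, TGACTCA in 5.2%, the full element TGACGTCA in 1.79%, the CArG box in 1.63% and an EGR site (GCGTGGGCG or GCGGGGGCG) in 3.47%. TGACG is part of TGACGTCA, so windows with the full element are counted under both. The Fosl2 window also held an EGR site, at -79 to -71. The Junb window held 1 TGACG and a TATAAA match at 1 to 6, just after the start site. The single Jund window held none of the motifs searched, which says only that these letters are not in that window.

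Over the time course, 7 of the 10 genes ended well below the carrier control, 1 ended above it, and Fosb and Egr3 stayed near it. After 72 h in actinonin, the log2 change against the control was -1.57 ± 0.10 (SE) for Egr2, -1.54 ± 0.15 for Egr1, -1.33 ± 0.08 for Jun and -1.23 ± 0.13 for Fosl1. It was -0.97 ± 0.11 for Fos, -0.68 ± 0.08 for Junb and -0.57 ± 0.08 for Fosl2. Jund rose by 0.43 ± 0.07. The change was -0.17 ± 0.07 for Fosb and 0.03 ± 0.13 for Egr3, which was near background throughout.

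At 6 h, 4 members were called at an adjusted p under 0.05 (limma with Benjamini-Hochberg adjustment over all 24249 genes tested), 1 higher and 3 lower. The background was 24.8% of all genes tested, with 13.7% higher and 11.1% lower. At 24 h, 1 member was higher and 7 lower, against a background of 40.3% called, 21.2% higher and 19.1% lower. At 48 h, 1 was higher and 6 lower, against 41.8% called, 21.5% higher and 20.3% lower. At 72 h, 1 was higher and 8 lower, against 47.7% called, 25.2% higher and 22.6% lower. The members' share was thus 4 of 10 at 6 h and 9 of 10 at 72 h, with 3 and 8 of those lower, in a data set where close to as many genes rose as fell. The members' median change was -0.06, -0.51, -0.28 and -0.83 at the 4 times, where the median over all genes tested stayed within 0.01 of 0. The 4 comparisons share the same control samples.

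**Figure D1:**
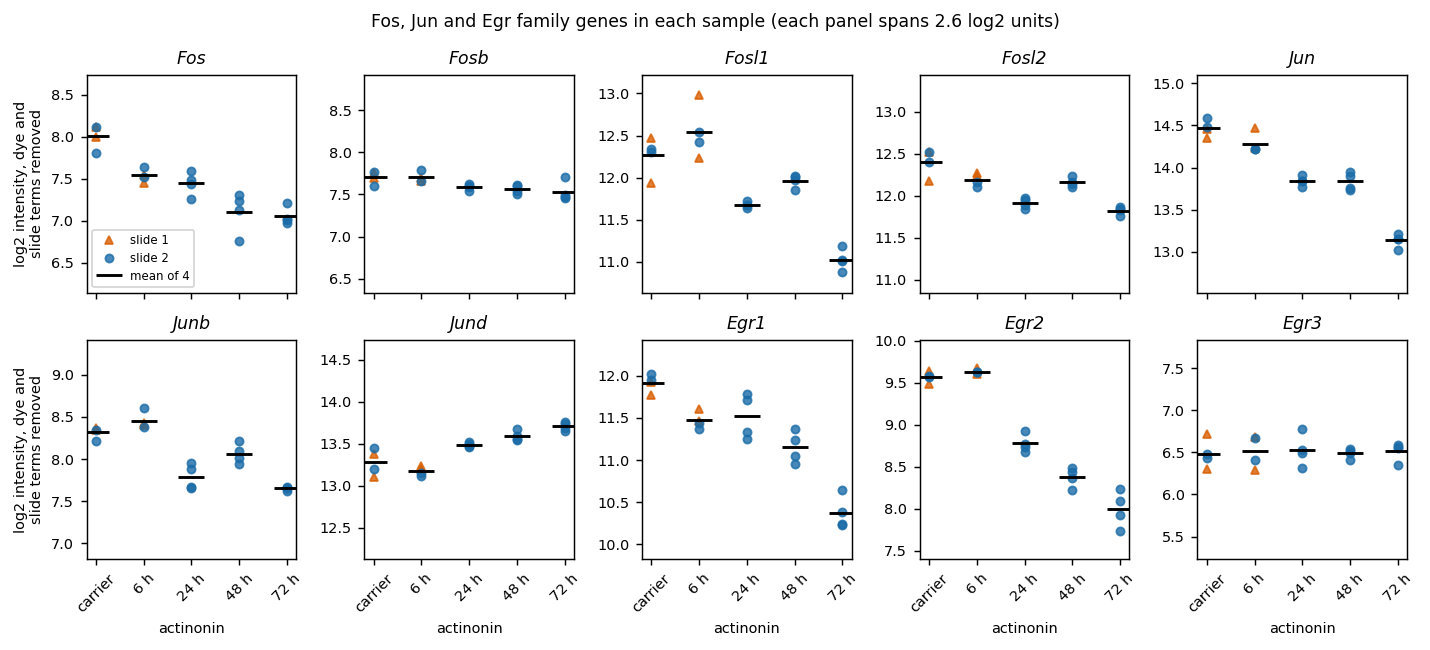
Log2 intensity of each gene (y axis, fitted dye and slide terms removed, each panel spanning the same log2 range) in the 4 samples of each group (x axis). Triangles are samples on slide 1, circles samples on slide 2, and bars the mean of 4. With these terms removed, the 24, 48 and 72 h samples all sit below every control sample for Egr2 and above every control sample for Jund. For Egr3 the groups overlap.

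Fos, the founding AP-1 subunit and the usual first reporter of growth factor signalling, was already lower at 6 h. Its log2 intensity, with the fitted dye and slide terms removed as in all per-sample values here, was 7.99, 8.12, 7.81 and 8.12 in the controls and 7.52, 7.44, 7.55 and 7.64 after 6 h in actinonin. Every 6 h sample lay below every control. It was 7.60, 7.44, 7.26 and 7.49 at 24 h, 7.24, 7.31, 7.13 and 6.76 at 48 h and 7.21, 6.98, 7.01 and 7.02 at 72 h. The treated groups stepped down over time but each overlapped the next. The fitted change against the control was -0.50 ± 0.09 (SE) at 6 h (adjusted p = 0.000603) and -0.58 ± 0.11 at 24 h (adjusted p = 0.000487). It was -0.92 ± 0.10 at 48 h and -0.97 ± 0.11 at 72 h, which is 1.96-fold lower. Fitted changes differ slightly from differences of the group means because the fit weights samples for the array they share.

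The replicate spots of the Fos probe give its measurement error within a sample. The SD over those spots was between 0.06 and 0.19 in the 20 samples, with a median of 0.10, after 13 of 200 outlying spot values were left out. This spread is technical only and does not include the spread between samples. The lowest single Fos value, 6.76 in the 48 h sample 2_Cy5, was on the array whose share of spots above background was highest.

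**Figure D2:**
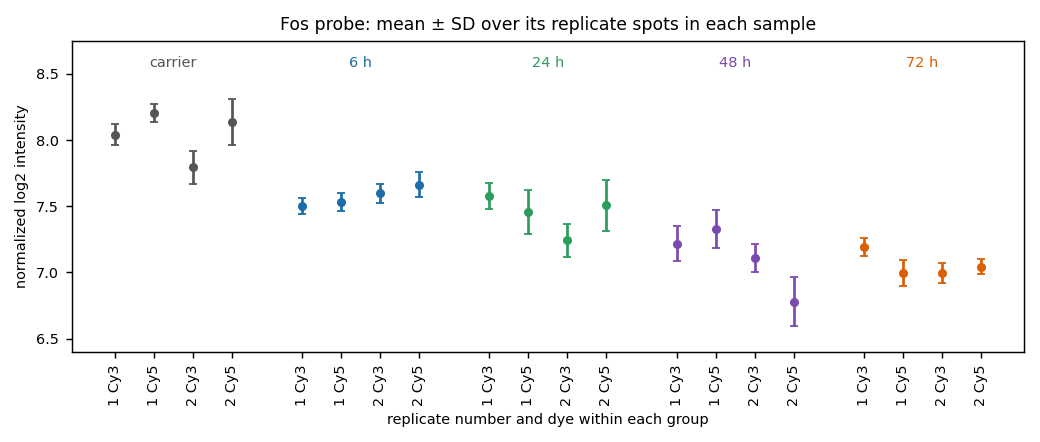
Normalized log2 intensity of the Fos probe (y axis) in each of the 20 samples (x axis, replicate number and dye within group), as the mean with bars of 1 SD over its replicate spots. The spot SD ran from 0.06 to 0.19, and the control samples sit above the samples of every treated group.

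Fosl1, which encodes Fra-1, the AP-1 subunit tied to migration and growth in fibroblasts, was higher at 6 h and then fell, came back in part and fell again. Its values were 11.94, 12.47, 12.34 and 12.31 in the controls and 12.55, 12.23, 12.98 and 12.43 at 6 h, and these groups overlapped. They were 11.67, 11.64, 11.72 and 11.67 at 24 h, 12.00, 11.97, 11.86 and 12.02 at 48 h and 10.87, 11.02, 11.01 and 11.19 at 72 h. The 24 h samples lay below all controls, the 48 h samples above all 24 h samples, and the 72 h samples below those of all other groups. With the dye and slide terms left in, the first of these did not hold. Control 1_Cy3, on slide 1, was then at 11.713 and the 24 h sample 2_Cy3 at 11.720. The slide term of Fosl1 was not called (adjusted p = 0.150). Against the control Fosl1 was 0.31 ± 0.11 higher at 6 h (adjusted p = 0.0445). The change was -0.58 ± 0.13 at 24 h (adjusted p = 0.00153) and reached -1.23 ± 0.13 at 72 h, 2.35-fold lower. The 48 h change, -0.29 ± 0.11, missed the threshold (adjusted p = 0.0503). The 6 h rise was lost in 23 of 35 alternative fits, including both single slides, with 0.40 on slide 1 and 0.20 on slide 2.

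Fosl2, which encodes Fra-2, the other Fos-related subunit, was called lower at all 4 times, 6 h included. Its 4 values per group ranged from 12.17 to 12.52 in the controls, 12.10 to 12.27 at 6 h, 11.84 to 11.98 at 24 h, 12.10 to 12.23 at 48 h and 11.76 to 11.87 at 72 h. The 24 h and 72 h ranges lay below those of the other groups and overlapped each other. With the dye and slide terms left in, both overlapped the controls. Control 1_Cy3, on slide 1, was then at 11.909, the 24 h sample 1_Cy3 at 12.060 and the 72 h sample 2_Cy3 at 11.914. Its changes were -0.20 ± 0.06 at 6 h, -0.49 ± 0.08 at 24 h, -0.24 ± 0.07 at 48 h and -0.57 ± 0.08 at 72 h, with adjusted p from 7.84e-06 to 0.0289. The 6 h call was lost in 14 of 35 alternative fits and the 48 h call in 6 of 34, 1 of them the fit without the array with most spots above background (-0.13). The other Fosl2 probe, well above background in 6 of 20 samples, gave changes of -0.28, -0.56, -0.42 and -0.49, none of them past the threshold.

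Fosb, a Fos paralogue best known for its long-lived splice form in neurons, moved least among the genes above background in every sample. Its values ranged from 7.60 to 7.76 in the controls and from 7.46 to 7.71 at 72 h, and every treated group overlapped the controls. The 24 and 48 h samples lay below all 6 h samples, but not with the dye and slide terms left in. The 6 h sample 2_Cy3 was then at 7.57, and the 24 h sample 1_Cy3 and the 48 h sample 1_Cy5 at 7.62. The changes were -0.00, -0.11, -0.14 and -0.17 at 6, 24, 48 and 72 h, each with an SE of 0.05 to 0.07. Only the 72 h change passed (adjusted p = 0.0375), and that call was lost in 14 of 33 alternative fits.

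**Figure D3:**
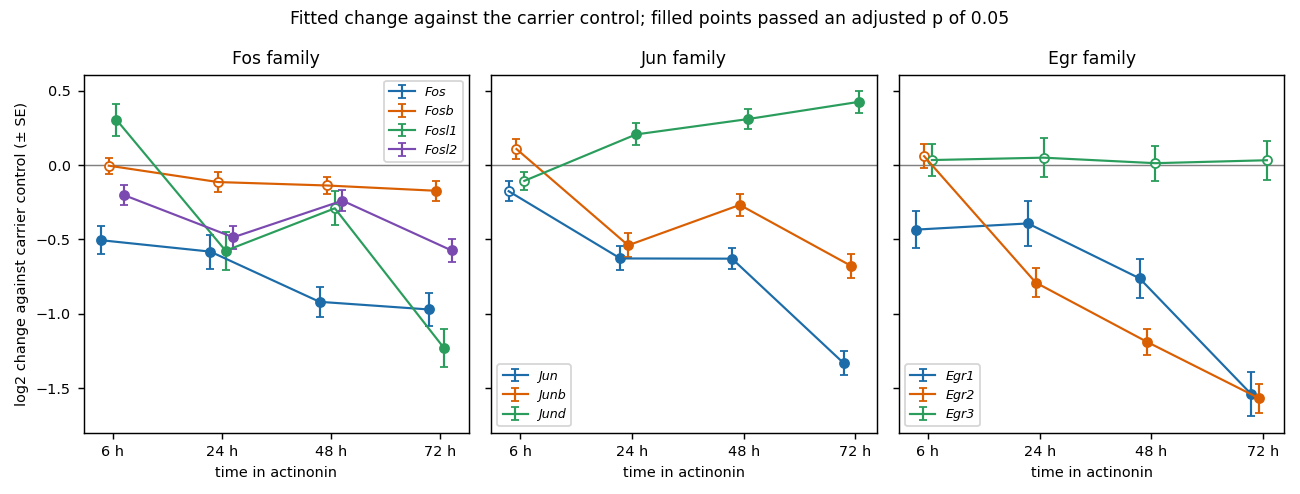
Fitted log2 change against the carrier control (y axis, bars ± 1 SE) at 6, 24, 48 and 72 h in actinonin (x axis) for the Fos, Jun and Egr families. Filled points passed an adjusted p of 0.05 and open points did not. Egr2, Egr1, Jun and Fosl1 end between -1.57 and -1.23, and Jund is the single gene that ends above 0 with a filled point.

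Among the Jun genes, Jun itself, the strongly activating AP-1 partner, showed the largest fall. Its values were 14.35, 14.46, 14.59 and 14.48 in the controls, 14.22, 14.23, 14.47 and 14.22 at 6 h, 13.91, 13.84, 13.77 and 13.84 at 24 h, 13.90, 13.95, 13.75 and 13.74 at 48 h and 13.02, 13.21, 13.15 and 13.15 at 72 h. The control and 6 h groups overlapped, the 24 and 48 h groups lay together below both, and the 72 h group lay below all. With the dye and slide terms left in, only the 72 h group stayed apart. On slide 1, controls 1_Cy3 (13.66) and 1_Cy5 (13.70) and the 6 h sample 1_Cy5 (13.47) then lay below every 24 h sample. The lowest 24 h sample was 1_Cy5, at 13.80. The change at 6 h, -0.18 ± 0.07, did not pass (adjusted p = 0.0658). It was -0.63 ± 0.08 at 24 h (adjusted p = 6.94e-06) and -0.63 ± 0.07 at 48 h, and -1.33 ± 0.08 at 72 h (adjusted p = 3.25e-10), 2.52-fold lower. By size the 72 h change ranked 282 among the 24249 genes tested.

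Jun was also the member most affected by the slide. Samples on slide 2 were higher than those on slide 1 by a fitted 0.73, and 2 of 4 controls and 2 of 4 samples at 6 h were on slide 1. Within slide 2, which carried every later sample, the Jun changes were -0.33 at 6 h (adjusted p = 0.0123), -0.70 at 24 h, -0.70 at 48 h and -1.41 at 72 h. Without a slide term the 24 h change was -0.33 and was no longer called (adjusted p = 0.153). Slide terms were also called for Fosl2 (0.35) and Junb (0.30), and dye terms for Junb (-0.27, Cy5 minus Cy3) and Fosl2 (-0.17). Such terms were common: of all 24249 genes tested, 10644 had a called slide term and 6397 a called dye term.

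Junb, often an antagonist of Jun and a gene of the cell cycle as well as of the serum response, fell, came back in part and fell again. Its values were 8.36, 8.35, 8.21 and 8.34 in the controls, 8.61, 8.40, 8.43 and 8.38 at 6 h, 7.88, 7.96, 7.67 and 7.66 at 24 h, 8.01, 8.21, 8.09 and 7.94 at 48 h and 7.67, 7.65, 7.62 and 7.66 at 72 h. On these values the 6 h samples all lay just above the controls, and the samples at each later time lay below them. With the dye and slide terms left in, only the 72 h samples were apart from the controls. Control 1_Cy5 was then at 7.91 and control 2_Cy3 at 8.35. The 6 h sample 1_Cy5 was at 7.96, the 24 h sample 1_Cy3 at 8.02 and the 48 h sample 2_Cy3 at 8.23. The 6 h change of 0.11 ± 0.07 was not called (adjusted p = 0.279). The later changes were -0.54 ± 0.08, -0.27 ± 0.07 and -0.68 ± 0.08 (adjusted p = 3.28e-05, 0.00512 and 1.50e-06).

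Jund, which in fibroblasts is known to restrain growth, was the only member that rose at any time after 6 h against the control. Its values were 13.38, 13.11, 13.20 and 13.45 in the controls, 13.15, 13.20, 13.23 and 13.12 at 6 h, 13.49, 13.46, 13.47 and 13.53 at 24 h, 13.55, 13.68, 13.59 and 13.54 at 48 h and 13.73, 13.65, 13.69 and 13.76 at 72 h. On these values all samples from 24 h on lay above all controls, which were themselves the most spread of the 5 groups. Before the dye and slide terms were removed this did not hold. Control 1_Cy3, on slide 1, was then at 13.535, above the 24 h samples 1_Cy5 (13.41), 2_Cy5 (13.48) and 2_Cy3 (13.52). It was also above the 48 h sample 2_Cy5 (13.49). The slide term of Jund, -0.11, was itself not called (adjusted p = 0.233). The changes were -0.11 ± 0.06 at 6 h (adjusted p = 0.244), 0.21 ± 0.07 at 24 h (adjusted p = 0.0334), 0.31 ± 0.07 at 48 h (adjusted p = 0.000847) and 0.43 ± 0.07 at 72 h (adjusted p = 0.000109). The 24 h call was lost in 13 of 33 alternative fits, 1 of them on slide 2 alone (0.15), whereas the 48 and 72 h calls were kept in all 34 and 33 of theirs. Jun and Jund therefore changed in opposite directions in the same RNA at 24, 48 and 72 h.

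Egr1, an activator of growth factor and matrix genes that also controls its own corepressors, was lower from 6 h. Its values were 11.92, 11.78, 12.02 and 11.95 in the controls, 11.37, 11.61, 11.47 and 11.44 at 6 h, 11.79, 11.33, 11.25 and 11.71 at 24 h, 11.23, 11.37, 10.95 and 11.05 at 48 h and 10.64, 10.24, 10.23 and 10.38 at 72 h. At 24 h the samples split, and the group overlapped the controls. Replicate 1_Cy3 lay just above the lowest control, 2_Cy5 just below it, and the other pair below the 6 h samples. With the dye and slide terms left in, the 24 h sample 1_Cy5 (11.39) was above the 6 h sample 1_Cy3 (11.31). The 72 h samples lay below all others. The changes were -0.43 ± 0.12 at 6 h (adjusted p = 0.0145), -0.39 ± 0.15 at 24 h (adjusted p = 0.0435), -0.76 ± 0.13 at 48 h (adjusted p = 0.000125) and -1.54 ± 0.15 at 72 h (adjusted p = 1.31e-07), 2.91-fold lower. The 24 h call was lost in 11 of 33 alternative fits, and the 6 h call within slide 1 alone (-0.31) and slide 2 alone (-0.59, adjusted p = 0.0551).

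Egr2, a zinc finger factor that drives myelination genes in Schwann cells and is serum-induced in fibroblasts, fell from 24 h on and by 72 h had changed by about as much as Egr1. Its values were 9.49, 9.64, 9.58 and 9.57 in the controls and 9.63, 9.67, 9.60 and 9.63 at 6 h, and the fitted change of 0.06 ± 0.08 was not called (adjusted p = 0.677). They were 8.93, 8.68, 8.74 and 8.78 at 24 h, 8.23, 8.44, 8.37 and 8.49 at 48 h and 8.24, 8.10, 7.93 and 7.74 at 72 h. No sample from 24 h on reached any control sample, and the 24 and 48 h groups did not overlap. The changes were -0.79 ± 0.10 at 24 h (adjusted p = 4.93e-06), -1.19 ± 0.09 at 48 h (adjusted p = 5.48e-09) and -1.57 ± 0.10 at 72 h (adjusted p = 5.26e-10), 2.96-fold lower. Its 24, 48 and 72 h calls were kept in every alternative fit. By size, its rank among all genes tested was 762 at 24 h, 224 at 48 h and 159 at 72 h.

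Egr3, the close relative of Egr2, was well above background in 2 control samples, no sample at 6 or 72 h, and 1 sample each at 24 and 48 h. Its values ran from 6.29 to 6.78 over all 20 samples with every group overlapping. Its changes were 0.03, 0.05, 0.01 and 0.03, with adjusted p between 0.797 and 0.949. At this signal a change could not be measured.

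Between successive times, the members moved in 3 steps that differed. From 6 to 24 h, 1 of 10 was called higher and 5 lower, against a background of 32.8% called, 16.4% in each direction. Fosl1 and Egr2 had the largest changes of that step, -0.88 ± 0.13 and -0.85 ± 0.10, followed by Junb at -0.65 ± 0.08 and Jun at -0.45 ± 0.08. Fos and Egr1, both already lower at 6 h, differed from 6 to 24 h by -0.08 ± 0.11 and 0.04 ± 0.15 and were not called.

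From 24 to 48 h, 2 members were higher and 2 lower, against a background of 12.1% called, 5.77% higher and 6.36% lower. Of all calls 47.6% were higher, and 28.0% without scaling between arrays. Junb and Fosl2 rose by 0.27 ± 0.07 and 0.25 ± 0.07, and Egr2 and Fos changed by -0.40 ± 0.09 and -0.34 ± 0.10. Fosl1, at 0.29 ± 0.12, was not called (adjusted p = 0.128), though all 4 of its 48 h samples lay above all 4 at 24 h. The count of 4 fell to 1 without the 48 h sample 2_Cy3 or without the 24 h sample 2_Cy5, to 1 without a dye term or a slide term, and to 0 without scaling between arrays.

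From 48 to 72 h, no member was higher and 6 were lower, against a background of 23.2% called, 12.9% higher and 10.3% lower. Of all calls 55.5% were higher, and 69.7% without scaling between arrays. Fosl1, Egr1 and Jun led this step, with changes of -0.94 ± 0.12, -0.78 ± 0.14 and -0.70 ± 0.07. By size they ranked 62, 120 and 188 among the 24249 genes tested. Junb, Egr2 and Fosl2 followed with -0.41 ± 0.07, -0.38 ± 0.09 and -0.34 ± 0.07, and Fos was not called (-0.05 ± 0.10, adjusted p = 0.771).

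On 4 arrays a 72 h and a 24 h sample were hybridised together, 2 arrays in each dye orientation, which gives the later part of the course within an array. The log2 ratio of 72 h over 24 h was -0.74, -0.77, -0.69 and -0.62 for Jun and -0.77, -0.65, -0.53 and -0.67 for Fosl1, close to the same on every array. For Egr1 it was -0.81, -1.43, -0.75 and -1.60, below 0 on every array but with a wider spread (SD 0.43). For Egr2 it was -0.46, -0.80, -0.97 and -0.87, and for Fos -0.26, -0.58, -0.20 and -0.51. Jund was above 0 on 4 of 4 arrays (0.06 to 0.37). Fosl2 and Junb gave values on both sides of 0, with the higher ones on the arrays where the 72 h sample carried Cy3. Both are genes with a called dye term.

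**Figure D4:**
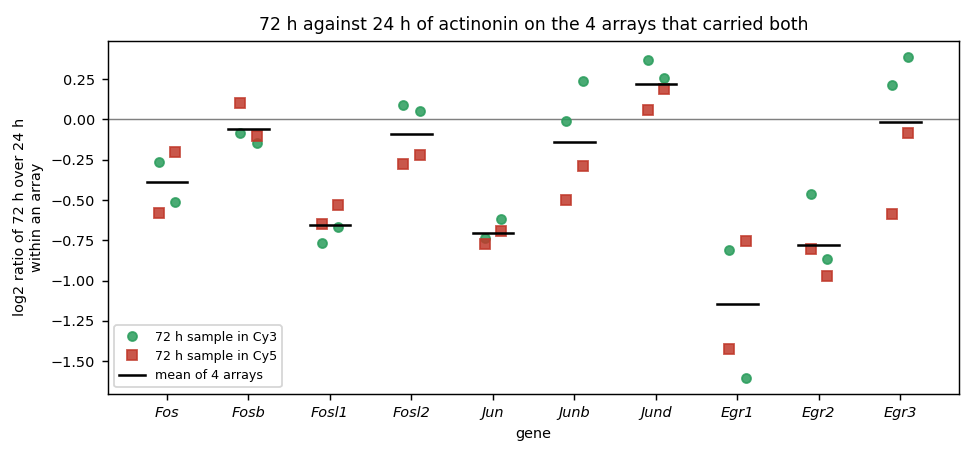
Log2 ratio of the 72 h over the 24 h sample within each of the 4 arrays that carried both (y axis) for each gene (x axis). Green circles mark arrays with the 72 h sample in Cy3, red squares those with it in Cy5, and bars the mean. Fos, Fosl1, Jun, Egr1 and Egr2 are below 0 on all 4 arrays and Jund above 0 on all 4.

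Across the 20 samples, Fosl1 and Jun had the highest correlation between members (Pearson r = 0.918), followed by Jun with Egr2 (0.906) and with Egr1 (0.899). Jund ran against the others, with r = -0.926 against Egr2 and -0.838 against Jun. These correlations describe samples that share the 5 groups, the arrays and the normalization. Among 14240 other named genes, those most like Jun over the 20 samples were Zfp207 (r = 0.983), Arc (0.982), itself an activity-induced immediate early gene, and Rgs17 (0.981). Arc changed by -0.38, -0.94, -0.82 and -1.64 at the 4 times. Those most like Junb were the histone genes H4c12 (0.963) and H4c14 (0.961) and the mitotic kinase gene Pbk (0.955). H4c12 changed by 0.20, -0.74, -0.40 and -0.93, with the same partial return at 48 h as Junb.

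For the other genes the nearest patterns were as close or less close. Genes near Fosl1 were Cnst (r = 0.98) and the actin-disassembly factor Wdr1 (0.977). Genes near Egr2 were Bbs10 (0.973) and Iqgap2 (0.972), and Jund was nearest to Pik3r2 (0.963), Rnf157 (0.957) and Bphl (0.956). Fos was nearest to Steap3 (0.95), Polr2b (0.945) and Rtn4rl1 (0.944), Fosl2 to Csl (0.949), Ankle1 (0.943) and Pik3cb (0.94), and Egr1 to Fam131b (0.948), Gls2 (0.943) and Fbxl8 (0.924). Fosb had the loosest neighbours, led by Usp47 (0.822), Psmb4 (0.819) and Nup107 (0.814).

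Genes known to act upstream of these families changed in both directions. At 6 h, 2 of 6 SRF-related genes, 5 of 14 MAP kinase genes and 7 of 15 feedback inhibitors were called, where 24.8% of all genes were. Over all genes tested, 40.3%, 41.8% and 47.7% were called at 24, 48 and 72 h. Of all genes, 21.2% were higher and 19.1% lower at 24 h. These shares were 21.5% and 20.3% at 48 h, and 25.2% and 22.6% at 72 h. Every list count against the control given below stands beside these shares. Of 6 genes for SRF, its ternary complex partners and its coactivators, 2 were lower and none higher at 6, 24 and 48 h, and 3 were lower at 72 h. Mrtfa, an actin-regulated SRF coactivator, changed by -0.24 ± 0.04, -0.54 ± 0.04, -0.77 ± 0.04 and -0.76 ± 0.04 at the 4 times. Elk3, a ternary complex factor that can repress Fos, changed by -0.23, -0.59, -0.54 and -0.66. Srf was called at 72 h, at -0.24 ± 0.08. Of 14 MAP kinases and their kinases, 3, 4, 5 and 6 were higher and 2, 0, 3 and 2 lower at the 4 times. Mapk9, a JNK that phosphorylates Jun, was 0.34 ± 0.06 higher at 72 h, and Mapk14, the p38 kinase, changed by -0.37 ± 0.06.

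Of 15 MAP kinase feedback inhibitors, 5 were higher and 2 lower at 6 h, and 3 higher and 8 lower at 72 h. Dusp4, a nuclear ERK phosphatase, was higher at all 4 times, by 0.52, 0.72, 0.66 and 0.68. Dusp1, itself an immediate early gene, was lower at 6 h at -0.40 ± 0.08, and Dusp6, a cytoplasmic ERK phosphatase, was lower at 72 h at -0.59 ± 0.10. Dusp14 and Dusp10 changed by -0.81 and -0.79 at 72 h. Nab1 and Nab2, the corepressors that bind Egr proteins, were both lower at 72 h, at -0.40 ± 0.06 and -0.56 ± 0.07, and Nab2 was lower at each time. Egr4 did not pass the filter.

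The other leucine zipper partners of AP-1 included Atf3, which had the largest rise among the tested genes of these lists at 6 h. Of 9 tested from a list of 12, 5 were higher and none lower at 6 h, and 5 were higher and 2 lower at 72 h. Their median change was 0.41 at 6 h and 0.29 at 72 h. From 6 to 24 h 2 rose and 5 fell, where 16.4% of all genes were called in each direction. Atf3, a stress-induced factor that pairs with Jun proteins, was higher by 2.02 ± 0.08 at 6 h, 1.38 ± 0.10 at 24 h, 1.73 ± 0.08 at 48 h and 1.61 ± 0.10 at 72 h. Atf4, the main factor of the integrated stress response, was higher by 1.05, 0.66, 0.80 and 0.62. Jdp2, a Jun-binding repressor, was 0.76 ± 0.05 higher at 6 h. Mafg was higher by 0.67, 0.61 and 0.63 at 24, 48 and 72 h, whereas Maff, a small Maf gene that serum and stress induce, changed by -0.73 ± 0.14 at 72 h.

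**Figure D5:**
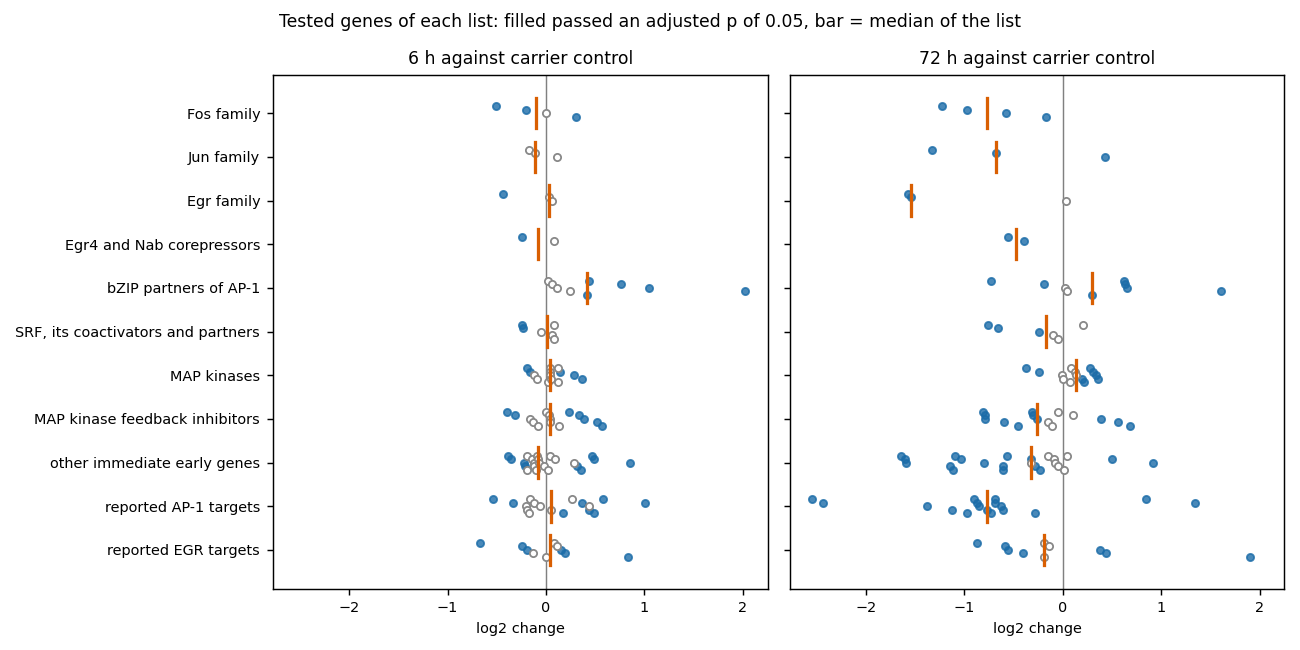
Log2 change against the carrier control (x axis) of each tested gene of the 3 families and of the related gene lists (y axis), at 6 h on the left and 72 h on the right. Filled points passed an adjusted p of 0.05 and orange bars are list medians. The leucine zipper partners have a median of 0.41 at 6 h and 0.29 at 72 h, and the reported AP-1 targets one of 0.05 and -0.77.

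The wider set of immediate early genes was mixed at 6 h and mostly lower later. Of 23 tested, 5 were higher and 4 lower at 6 h, 3 and 16 at 24 h, 5 and 12 at 48 h, and 2 and 14 at 72 h, with medians of -0.08, -0.41, -0.27 and -0.32. Klf10, a TGF-beta induced factor, and Sgk1, a serum-induced kinase, changed by -1.59 ± 0.08 and -1.15 ± 0.08 at 72 h. Not all fell: Klf4, a factor linked to growth arrest, was higher by 0.86, 0.81, 1.00 and 0.92 at the 4 times, and the p53-linked kinase Plk2 by 0.46, 0.34, 0.43 and 0.50.

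Of 17 reported AP-1 target genes tested, 6 were higher and 2 lower at 6 h, 2 and 14 at 24 h, 2 and 14 at 48 h, and 2 and 15 at 72 h. The median at 72 h was -0.77. The chemokine gene Ccl2 was 0.49 ± 0.08 higher at 6 h and changed by -1.66 ± 0.10 at 24 h and -2.43 ± 0.10 at 72 h. The interleukin-33 receptor gene Il1rl1 changed by -2.55 ± 0.14 and the protease inhibitor gene Timp1 by -1.12 ± 0.10 at 72 h. The 2 genes called higher from 24 h on were Hmox1, a haem-degrading stress gene, at 1.34 ± 0.07 at 72 h, and Ezr, which links actin to the membrane, at 0.85 ± 0.07. Hmox1 is also a target of other stress factors.

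Of 10 reported Egr targets, 3 were higher and 3 lower at 6 h, 2 and 4 at 24 h, 1 and 5 at 48 h, and 3 and 4 at 72 h. Their medians were 0.04, -0.13, -0.24 and -0.19. Ndrg1, a stress-induced gene, was higher by 1.90 ± 0.07 at 72 h, and the matrix gene Thbs1 changed by -0.87 ± 0.10 and Id3 by -0.59 ± 0.06. The lists name genes reported to respond to these factors in some cell type, and no binding was measured here.

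Cell markers moved as well. Of 12 fibroblast markers, 11 were well above background in all 20 samples, and 10 were lower at 24 h, 11 at 48 h and 9 at 72 h, with 1 higher at 72 h. Pdgfra changed by -0.50, -1.10 and -0.75 at 6, 48 and 72 h. From 48 to 72 h, the step in which 6 members fell, 9 of 12 fibroblast markers were called higher, against 12.9% of all genes. The summed intensity of the list ran from 879000 to 1210000 in the controls, 743100 to 1063000 at 6 h, 761400 to 928500 at 24 h, 572500 to 855100 at 48 h and 808800 to 964200 at 72 h. Of 6 macrophage and leukocyte markers on the array, 3 (Csf1r, Itgam and Cd14) were above background in all samples, Ptprc in none and Adgre1 in no control. Their summed intensity ran from 31420 to 46320 in the controls, 30330 to 44570 at 6 h, 33580 to 35300 at 24 h, 35560 to 42080 at 48 h and 34640 to 38250 at 72 h, though Cd14 changed by -1.35 ± 0.08. No epithelial marker was above background in all samples, and the endothelial marker Cdh5 and the neural marker Sox2 were in none. However, 2 of 4 endothelial markers (Pecam1, Kdr) and 2 of 4 neural markers (Tubb3, Map2) were above background in all 20 samples. The neural marker Sox10 was above background in 3 of 4 controls and in every treated sample. The part of these shifts in the changes of the Fos, Jun and Egr genes was not tested.

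Between 50.8% and 58.7% of spots were well above background in the samples of 9 arrays. The remaining array, which held control 2_Cy3 and the 48 h sample 2_Cy5, stood apart at 66.4% and 70.5%. Without it, 2 members were called at 6 h instead of 4, since Fosl1 and Fosl2 were no longer called. Slide 1 held 2 controls and 2 samples at 6 h. The 6 h change on slide 1 and on slide 2 was -0.56 and -0.44 for Fos, -0.31 and -0.59 for Egr1, and -0.06 and -0.33 for Jun. No member's difference between slides passed the threshold, where 0.0289% of all genes did.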

How the data were processed

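Total RNA of 20 samples was measured on 10 Agilent two-colour arrays, 1 sample per channel. The deposited intensity values are median spot and local background signals, not normalized, and per the file headers come from Feature Extraction 10.7.3.1 (slide 1) and 11.0.1.1 (slide 2), so slide, scan and software cannot be told apart. Mean signals were not used here. The authors' deposited log2 values, made with R 2.15 and limma per the submitters' processing notes, served as an alternative. Their columns have medians of 6.90 to 6.91 and correlated with their own channel at 0.9986 or more, so only their exact steps are unknown.

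Signals were corrected with normexp (offset 50), loess-normalized within arrays (weight 0 for controls and outliers), and scaled between arrays (Aquantile) in R 4.3.3 with limma 3.58.1. These steps would hide a change common to all genes. Of 28116 probes with RefSeq accessions, 26582 matched a table of GRCm38.p6 genes. A probe needed a signal well above background in 4 or more samples, and the brightest stood for its gene, or for its transcript where unnamed. This gave 24249 genes and transcripts tested. A limma model of group, dye and slide was fitted to all 20 samples with a random array effect (correlation 0.25), tested two-sided and adjusted by Benjamini-Hochberg. Per-sample values have the fitted dye term set midway and the slide term set to slide 2. Levels are not compared between probes. The labels call the 4 samples of a group independent but say no more of their cultures, so the p-values reflect sample spread only, which may be technical. Promoters came from RefSeq tables.

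On simulated data, 62.7% of changes of 0.3 and 94.0% of changes of 0.6 (log2) were recovered at 6 h, 28.4% and 88.1% at 24 h, 52.2% and 92.5% at 48 h, and 41.8% and 88.1% at 72 h. Unchanged genes made up 3.93% to 8.47% of the calls on simulated data, at 7.19% at 24 h and 8.47% at 48 h above the nominal share. The simulation changed only a small share of the genes, far fewer than the 24.8% to 47.7% called against the control in the measured data. The Benjamini-Hochberg cutoff depends on that share, so the recovered shares do not give the power of the measured comparisons. Whether the share of unchanged genes holds for the calls on the measured data was not tested. Members and gene lists were chosen with earlier results of these data known. All 10 members were named in every comparison. Of each list, up to 3 called genes per direction and time with the smallest adjusted p were eligible to be named, and the 3 genes most correlated with each called member, some of which are not reported here. A few others (Ptprc, Adgre1, Csf1r, Cdh5, Sox2, Sox10, Map2) are named for their detection only. The alternatives changed the background correction, normalization, filter, slide, dye and array terms, the probe rule and the samples.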

Additional observations from a re-analysis of the deposited data

Results flagged for a closer look

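Within each group of 4 samples, the gap of the highest or lowest sample was compared with the group's range for each of the 10 genes. Of 50 groups examined, 4 passed Dixon's critical value, where chance gives about 1 in 20. The Fosb value of 7.711 in the 72 h sample 1_Cy5 was above the other 3, which lay between 7.46 and 7.49. The Jun value of 14.466 in the 6 h sample 2_Cy3, on slide 1, was above the other 3, at 14.22 to 14.23. The Junb value of 8.2124 in control 2_Cy3 was below the other controls, at 8.34 to 8.36, and that sample was on the array with most spots above background. The Egr3 value of 6.3501 in the 72 h sample 1_Cy5 was the lowest of its group, in a gene near background. These values were kept in all main results.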

How the results depend on the processing

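Of 933 member values under other settings, 847 stayed on the same side of the threshold, with the same direction where called. Another 73 lost and 13 gained a call, and 0 reversed a called direction. Of 1400 with 1 sample left out, these counts were 1327, 61, 12 and 0. Values that stayed uncalled count as unchanged whatever their sign. Egr3 at 6 h, for example, ran from -0.155 to 0.18 over its 34 alternatives. The members called at 6 h, 4 in the main fit, numbered 2 without the filter on dim probes, without the dye term, with only the 2 groups compared or without the array with most spots above background, and 0 on slide 1 alone. They ranged from 1 to 4 with 1 sample left out, at 1 without the 6 h sample 1_Cy3 or control 2_Cy3 and 2 without control 2_Cy5. From 24 to 48 h, also 4, they numbered 0 without scaling between arrays, 2 without the filter, 1 without the slide or dye term, and 1 to 5 with 1 sample left out. The cause was not tested.

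Over all genes, the 6023 calls at 6 h became 29 on slide 1 alone, 2631 with the array as a fixed block and 2745 with only the 2 groups compared. Without scaling between arrays, 9766 calls at 24 h became 6116, 7963 from 6 to 24 h became 4434, 2941 from 24 to 48 h became 339 and 5627 from 48 to 72 h became 1784. Without the slide term the last 3 became 5275, 846 and 2654. From 24 to 48 h there were 1784 without the dye term and 1781 to 3301 with 1 sample left out, the lowest without the 24 h sample 2_Cy5.

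Titles share replicate numbers. Of 40 pairs of samples from different groups with the same number and dye, 1 correlated above 0.1 in its deviations (range -0.621 to 0.199). Of 20 samples, 0 correlated best with a sample of their own number and dye. The samples of an array differ in dye, so an array partner could never count as a match here. Pairs with the same number in opposite dyes were not counted as matches either. The check therefore cannot decide whether the numbers pair samples across groups, and the main fit did not pair them. Whether the Cy3 and Cy5 samples of 1 group that share a number are paired was not tested. With a replicate block, 4, 7, 8 and 9 members were called at 6, 24, 48 and 72 h, where the fit without it called 4, 8, 7 and 9. Signal near background limits Egr3 and the second Fosl2 probe.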
